A study of Mus musculus with 7 samples.

Results

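Hepatocyte nuclear factors and factors of endocrine maturation were examined in MIN6 cells, a line of mouse pancreatic beta cells that arose from an insulinoma of mice carrying large T antigen under the insulin promoter. The 8 genes were Hnf4a, Hnf4g, Mnx1, Insm1, St18, Neurog3, Ucn3 and Esrrg, taken as every non-control probe whose accession is a transcript of one of them in RefSeq, which gave 11 of the 56605 probes on the array. Cells received phosphate-buffered saline (PBS, the vehicle, 3 arrays) or MPE (4 arrays) for 3 days. MPE is a polysaccharide extract of Maidong, the root of a lilyturf used in Chinese medicine. Each array was hybridised with Cy3-labelled material made from the total RNA of 1 sample. MPE was tested in culture at several concentrations from 0.05 to 50 μg/mL, and the one behind the arrays is not named. Nor is it stated that replicates were separate cultures, so the p-values rest on a spread between samples that may be technical. Of the 8 genes, 7 could be tested and 0 passed the threshold, where 0.00453% of the 22098 genes tested did. The test was limma's moderated test with Benjamini-Hochberg adjustment over all genes, and at an unadjusted p under 0.05 the count among the 7 genes was also 0, against 4.1% of all genes.

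HNF4A is a nuclear receptor that keeps beta cells able to secrete insulin in response to glucose, and inherited loss of one copy causes a form of diabetes that begins in youth. NEUROG3 switches on briefly in pancreatic progenitors and commits them to endocrine fate, and INSM1 and ST18 (also called MYT3) act after it. UCN3, a peptide hormone of mature beta cells, and ESRRG, a nuclear receptor of oxidative metabolism, come on as beta cells mature after birth.

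All levels are log2 values relative to the 75th percentile of the same array, so 1 unit is a doubling. Since probes differ in brightness, levels were not set against each other between genes. Between 27901 and 30111 probes per array were well above background. All 7 arrays were on 1 slide, with vehicle in its first row and MPE in its second, and row and treatment cannot be told apart. Of 10 defining beta-cell markers, 10 were well above background on all 7 arrays. For acinar and duct markers this held for 3 of 10, with Cpa1, Pnlip and Ptf1a detected on no array, and for stromal, endothelial and immune markers for 4 of 12. Markers of other islet cells were detected on all arrays for 7 of 8 genes, Gcg and Sst among them.

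Among the hepatocyte nuclear factors, the brighter Hnf4a probe stood at 1.26, 1.17 and 1.13 on vehicle replicates 1 to 3 and at 1.36, 1.41, 1.25 and 1.18 on MPE replicates 1 to 4. The groups overlapped, with MPE replicates 1 and 2 above every vehicle array and replicates 3 and 4 within their range. The means were 1.19 ± 0.07 (SD, n = 3) and 1.30 ± 0.11 (SD, n = 4), and the MPE level was 1.08 times vehicle (95% interval 0.957 to 1.22, limma adjusted p = 1.00). In bulk RNA, fewer cells expressing a gene and less RNA per cell cannot be told apart. The arrays of a group spread by a coefficient of variation of 4.67% for vehicle and 7.38% for MPE.

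Hnf4g, a paralogue of Hnf4a best known from the gut, was close to the detection limit. Its levels were -3.47, -3.52 and -3.99 with vehicle and -4.08, -3.88, -3.82 and -3.93 with MPE, and MPE replicate 1 was not well above background. Vehicle replicates 1 and 2 stood above the rest, while vehicle replicate 3 lay within the MPE range, so the groups overlapped. The MPE level was 0.83 times vehicle (0.659 to 1.04, limma adjusted p = 1.00), with the smallest unadjusted p of the 7 genes (0.0951). On the log2 scale the difference of -0.27 became -0.44 without vehicle replicate 3 (limma adjusted p = 0.687) and -0.17 without vehicle replicate 1 (adjusted p = 1.00), over a range of adjusted p from 0.336 to 1.00 in all settings tried. The lowest level called well above background was -4.73 to -4.61 on vehicle arrays and -4.16 to -4.11 on MPE arrays, a difference whose part in this result was not tested. The error that the scanner software, Feature Extraction, gave for the spot was 13.6% to 22.6% of its signal.

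**Figure D1:**
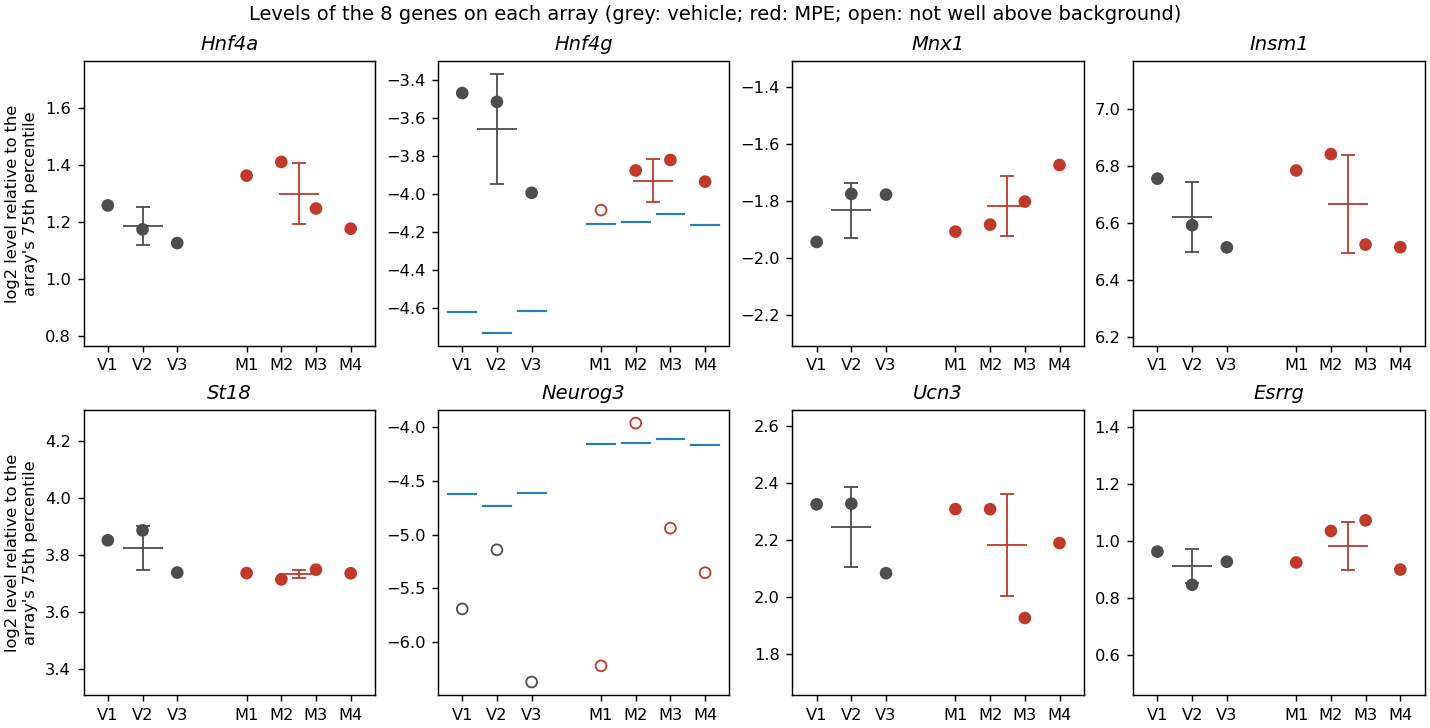
Level of each gene on the 7 arrays (V1 to V3, vehicle, and M1 to M4, MPE) as log2 relative to the array's 75th percentile. Bars are the mean and SD of each group and are left out for Neurog3. Blue lines, for Hnf4g and Neurog3, are the lowest level well above background. Each panel has its own axis. Vehicle and MPE arrays overlapped for all 8 genes, and the 4 St18 values with MPE lay between 3.71 and 3.75.

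The factors downstream of NEUROG3 were readily detected. Insm1, a zinc-finger repressor needed for endocrine differentiation, stood at 6.76, 6.59 and 6.51 with vehicle and at 6.78, 6.84, 6.52 and 6.51 with MPE. Both groups spanned nearly the same range, and the MPE level was 1.03 times vehicle (0.863 to 1.23, limma adjusted p = 1.00). That direction turned under median scaling, where the log2 difference went from 0.05 to -0.02. For St18, a zinc-finger factor of the MYT family, the brighter probe gave 3.85, 3.89 and 3.74 with vehicle and 3.74, 3.71, 3.75 and 3.74 with MPE. The 4 MPE arrays lay within 0.04 of each other, below vehicle replicates 1 and 2 and around vehicle replicate 3. At 0.938 times vehicle (0.859 to 1.03, limma adjusted p = 1.00), St18 had the narrowest interval of the 7 genes.

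Mnx1, a homeobox factor that keeps beta cells from taking on other islet fates, stood at -1.94, -1.78 and -1.78 with vehicle and at -1.91, -1.88, -1.80 and -1.67 with MPE. No array stood apart, and the ratio was 1.01 (0.887 to 1.15, limma adjusted p = 1.00), with a direction that turned under median scaling, quantile normalization and in the authors' value table.

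Neurog3 itself was not well above background on any of the 7 arrays and was not tested. Its values, all of them too close to background to be ordered, ran from -6.37 to -5.14 on vehicle arrays and from -6.22 to -3.96 on MPE arrays. The highest, on MPE replicate 2, lay 0.19 above the lowest level called well above background on that array but did not carry the flag itself. No fold is given because both groups are at background. Transcripts of this transient progenitor factor were thus not detectable at the sensitivity of this probe, whose error was 22.7% to 100% of its signal.

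Ucn3, the maturity hormone, was well above background throughout, at 2.33, 2.33 and 2.08 with vehicle and 2.31, 2.31, 1.93 and 2.19 with MPE. Replicates 1 and 2 of both groups lay together, and the low values were vehicle replicate 3 and MPE replicates 3 and 4. The MPE level was 0.958 times vehicle (0.791 to 1.16, limma adjusted p = 1.00). The 250 bases before its start are shown for the letters CAGATG, an E-box form that NEUROG and NEUROD factors are known to bind, in capitals (RefSeq, GRCm38.p6, minus strand, chr13:3945350-3945599).
Ucn3: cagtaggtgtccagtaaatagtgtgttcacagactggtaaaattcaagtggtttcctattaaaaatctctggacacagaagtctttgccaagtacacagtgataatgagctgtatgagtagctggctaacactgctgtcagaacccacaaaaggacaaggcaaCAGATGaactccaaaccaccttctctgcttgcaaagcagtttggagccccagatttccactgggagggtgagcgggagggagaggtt
The match lay on the strand of the gene, 87 to 82 bases before the start, and 14.4% of all RefSeq windows held these letters on one strand or the other.

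For Esrrg, the brighter probe stood at 0.96, 0.85 and 0.93 with vehicle and at 0.92, 1.03, 1.07 and 0.90 with MPE. MPE replicates 2 and 3 were above all vehicle arrays and the other MPE arrays among them. The ratio was 1.05 (0.944 to 1.17, limma adjusted p = 1.00).

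Across the 7 tested genes, 4 had a higher and 3 a lower mean with MPE, and their median log2 difference was 0.02, against -0.02 over all genes. For 6 of the 7, all but Hnf4g, the whole 95% interval was inside 1.5-fold either way, as it was for 80.7% of all genes tested. None of the 7 had non-overlapping groups, against 4.52% of all genes.

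**Figure D2:**
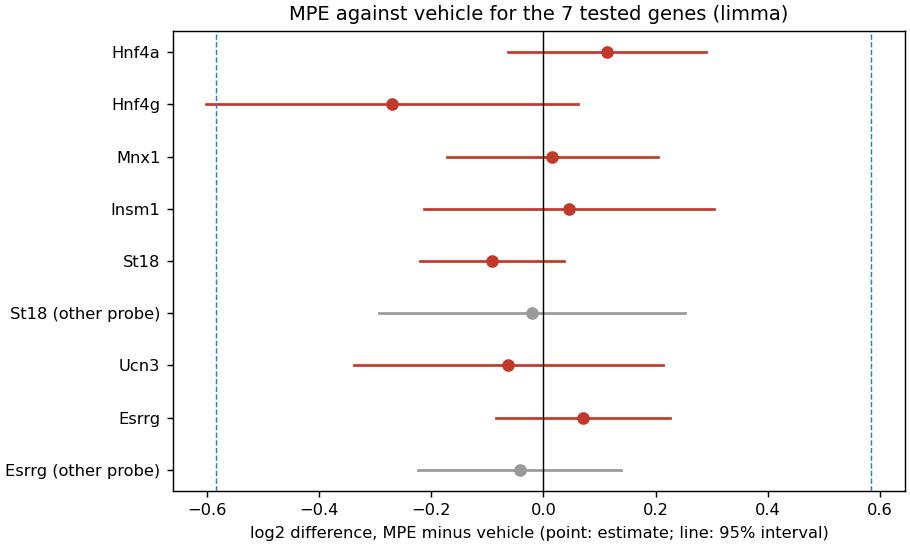
Log2 difference of MPE minus vehicle (x axis) for each tested gene, with the limma estimate as a point and the 95% interval as a line; grey marks the dimmer probe of St18 and Esrrg, and dashed lines mark 1.5-fold. All intervals include 0, and only that of Hnf4g reaches past 1.5-fold.

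Of the 4 slide columns, 3 held 1 vehicle and 1 MPE array each, so these same arrays could also be compared within a column. Hnf4a was higher with MPE in 3 of 3 columns, by 0.10 in column 1, 0.24 in column 2 and 0.05 in column 4 on the log2 scale. With the column as a block, in a fit of every probe, its difference was 0.13 ± 0.07 (SE, limma adjusted p = 0.984). Insm1 was also higher in 3 of 3 columns, by 0.03, 0.25 and 0.00072. St18 was lower in 3 of 3 columns, with differences of -0.12, -0.17 and -0.0025. For both Insm1 and St18 the difference in column 4 was near 0. The share of all genes with 1 direction in 3 of 3 columns was not counted. Hnf4g went from -0.62 in column 1 and -0.36 in column 2 to 0.06 in column 4. Mnx1, Ucn3 and Esrrg differed in sign between columns. Column 3 held only MPE replicate 3, so with the column block that array had no part in the differences. The block turned Ucn3 from -0.06 to 0.02, the same value as with MPE replicate 3 left out. With the column block 0 of the 7 genes passed.

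Position along the slide went with the levels of Ucn3 and Insm1. The 3 arrays of columns 3 and 4 (vehicle replicate 3, MPE replicates 3 and 4) lay below the 4 arrays of columns 1 and 2 for both genes. The mean difference was -0.25 for Ucn3 and -0.23 for Insm1 on the log2 scale. Within vehicle, replicate 3 minus the mean of replicates 1 and 2 was -0.24 for Ucn3 and -0.16 for Insm1, and within MPE the corresponding differences were -0.25 and -0.29. The other 5 tested genes overlapped between these columns. Of all genes tested, 16.1% were lower in columns 3 and 4 on every array in the same way and 11.7% were higher, so 2 of 7 genes is a small count beside a common pattern. The labels do not say whether the columns mark a difference in culture, labelling or hybridisation, and their part in these levels was not tested.

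**Figure D3:**
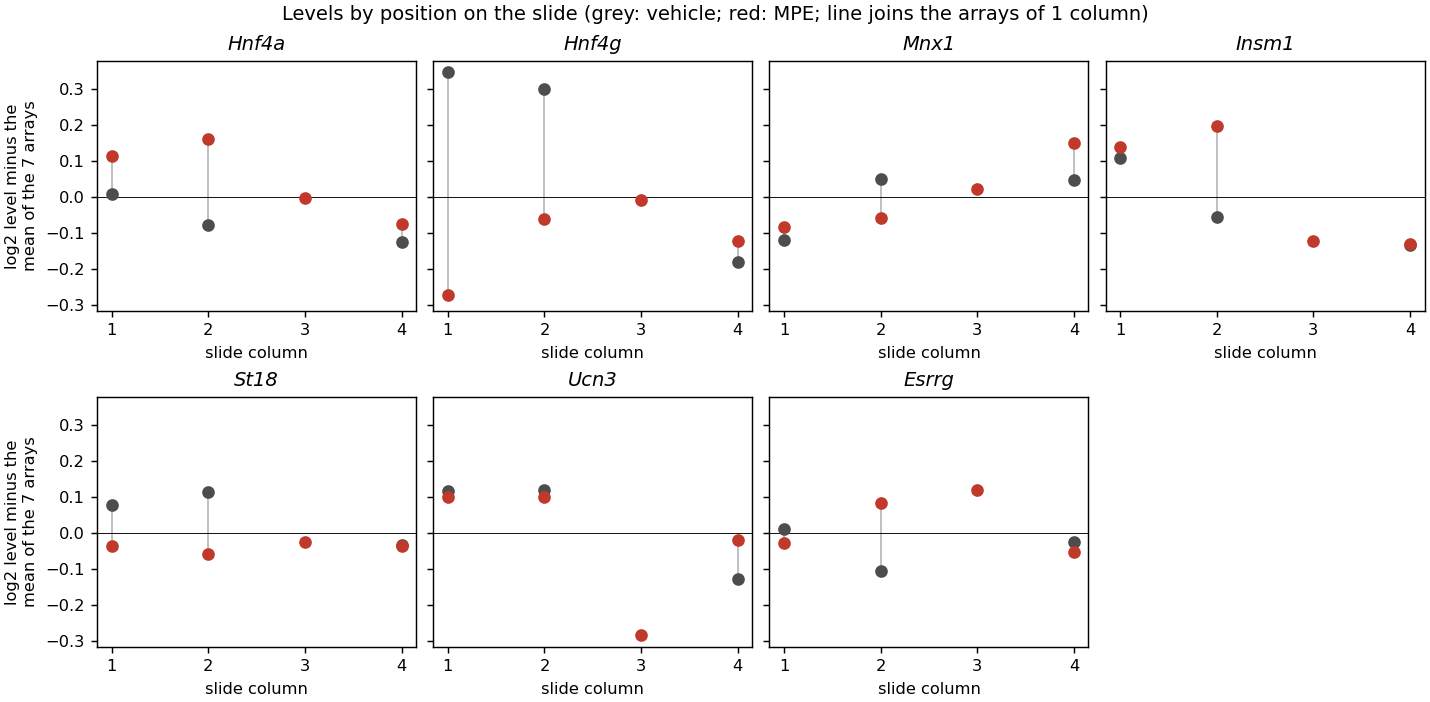
Level of each tested gene on every array, as log2 minus the gene's mean over the 7 arrays, against the array's column on the slide (grey, vehicle; red, MPE; lines join the arrays of 1 column). Ucn3 and Insm1 are lower in columns 3 and 4 in both groups, and Hnf4g differs between the groups in columns 1 and 2 but not in the same direction in column 4.

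For each gene well above background on all 7 arrays, the named genes whose levels ran most closely alongside were found among 12921 genes by Pearson's r over the 7 arrays. As a description, these were Kctd13 and Slc2a9 for Ucn3 (r = 0.995 and 0.994), Fgf9 and Gprc5c for Insm1 (0.992 and 0.992) and Nr1h3 for St18 (0.992). Zfp51 and Zfp39 ran alongside Esrrg (0.989 and 0.979), Htr1d and Ptpn5 alongside Mnx1 (0.982 and 0.967), and Mrpl53 and Ankrd46 alongside Hnf4a (0.981 and 0.979). Genes with an r of at least 0.95 numbered 248 for Ucn3 and 110 for Insm1, and 7 to 21 for the other 4 genes. These arrays share a slide, and the former 2 genes are those that went with the slide column. The genes named are the highest of 12921 values of r, each over only 7 arrays. How many unrelated genes would reach such values by chance was not tested, so they are not read as partners.

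Hnf4a, St18 and Esrrg had 2 probes each, and these did not read alike. The dimmer Hnf4a probe, with levels from -6.97 to -5.37, did not reach well above background on the vehicle arrays or on MPE replicates 1, 2 and 4. On MPE replicate 3 alone it stood at -1.60, well above background. The brighter Hnf4a probe gave 1.25 on that array, within its own range, so the high value was in 1 of 2 probes. This spot lay in row 45 of the 384 rows of spots. On the same array 604 probes were well above background there and on no other array, and 95.4% of them lay in rows 1 to 192; on the other MPE arrays, where this spot was not high, 86.4% to 95.3% of such probes did, and on vehicle arrays 24.2% to 35.5%. Whether the spot's place on the array had a part in the value was not tested.

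The dimmer St18 probe stood near the detection limit, at -3.90 to -3.58 with vehicle and -3.93 to -3.59 with MPE, and its MPE level was 0.986 times vehicle (0.816 to 1.19). The dimmer Esrrg probe gave 0.16, -0.07 and -0.03 with vehicle and 0.04, -0.03, 0.02 and -0.12 with MPE. Its ratio of 0.971 (0.857 to 1.1) fell on the other side of 1 from that of the brighter probe. In a fit of every probe, in which 0.0104% of 28938 probes passed, neither dimmer probe did (limma adjusted p = 1.00 for each). The files used here hold no probe sequences, so which transcripts each probe reads was not analysed here.

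**Figure D4:**
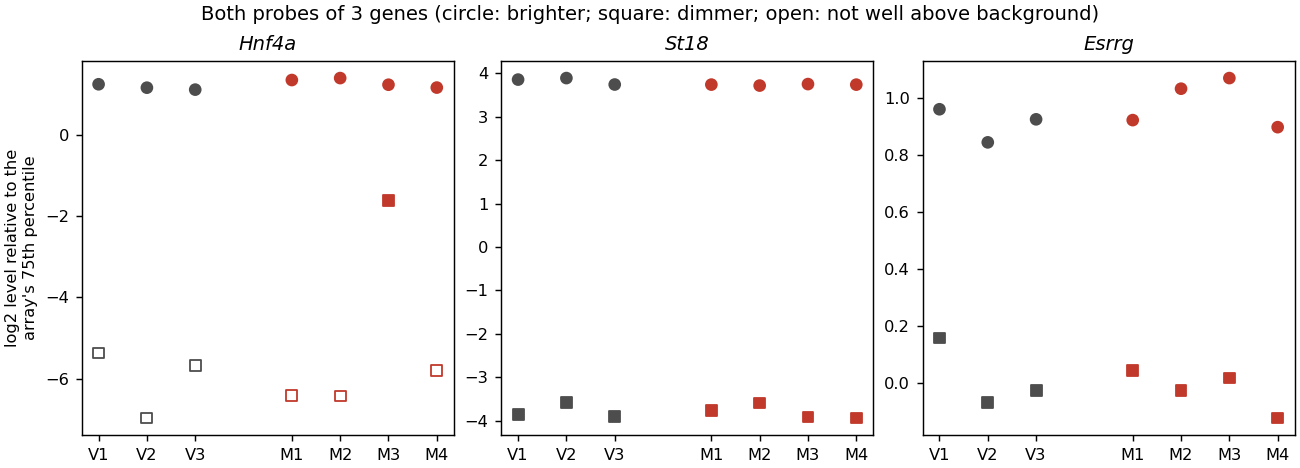
Levels of both probes of Hnf4a, St18 and Esrrg on each array, as log2 relative to the array's 75th percentile (circles, the brighter probe; squares, the dimmer probe; open symbols, not well above background). The dimmer Hnf4a probe is high on MPE replicate 3 only, at -1.60.

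The other genes of these networks were read from 6 lists, and 0 of their measured members passed limma's adjusted threshold or an unadjusted p under 0.05. In the HNF network, 6 of 10 genes were tested, 3 higher and 3 lower, and the median log2 difference was 0.00. The pioneer factor Foxa2 stood at 1.04 times vehicle (0.946 to 1.13) and Onecut1 (HNF6) at 0.922 times (0.805 to 1.06). Foxa3 was measured loosely, at 0.995 times (0.578 to 1.71). Of 25 genes on the list of HNF targets, 13 were tested, 3 higher and 10 lower, and their median was -0.03. Cltrn (collectrin) stood at 0.993 times vehicle (0.804 to 1.23). The glucose transporter Slc2a2, pyruvate kinase Pklr and most of the liver apolipoproteins on the list were well above background on no array. Slc2a2 and Pklr had 1 probe each, as did Rest, Aldh1a3 and Crhr2 below, so their lack of detection holds only at the sensitivity of those probes.

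Of the 32 genes of endocrine differentiation, 20 were tested, 6 higher and 14 lower, around a median of -0.02. Neurod1, the main effector of NEUROG3, stood at 1.03 times vehicle (0.905 to 1.18), the homeobox factor Pax4 at 0.983 times (0.884 to 1.09) and Rfx6 at 1.05 times (0.939 to 1.18). The relatives of St18 and Insm1 lay near 1 as well, with Myt1 at 0.998 times (0.916 to 1.09), Myt1l at 0.996 times (0.846 to 1.17) and Insm2 at 0.963 times (0.822 to 1.13). Hes1, the Notch target that represses Neurog3, was well above background on 3 vehicle and 2 MPE arrays, at 0.937 times (0.592 to 1.48). Rest, which represses neuronal and endocrine genes outside those lineages, was detected on no array.

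Of 23 genes marking mature or immature beta cells, 20 were tested, 2 higher and 18 lower, around a median of -0.06. Over all genes, 12756 of 22098 were lower. The list mixes markers of mature and of immature cells, so these counts give no direction for maturity. Of the 10 defining beta-cell markers, which share Slc30a8 with this list, 1 was higher and 9 lower around a median of -0.09, and 0 passed the test. Their summed linear level, relative to the array's 75th percentile, was 4292 to 5346 on vehicle and 4035 to 4701 on MPE arrays. The brightest probes weigh most in such a sum. Of the 10 acinar and duct markers, 4 were tested, 3 higher and 1 lower around a median of 0.12, with summed levels of 4.51 to 7.07 and 5.69 to 7.28. The farthest was Cel, a lipase of acinar cells, at a log2 difference of 1.63 (limma unadjusted p = 0.0248, adjusted p above the threshold). On how many arrays of each group Cel was well above background is not reported here. Of the stromal, endothelial and immune markers 4 were tested, 2 higher and 2 lower. The farthest below 0 was Itgam, at -0.35 (limma unadjusted p = 0.0067, adjusted p = 0.986). The part of these markers in the maturity list was not tested. Mafa, the insulin gene activator of mature cells, stood at 0.955 times vehicle (0.845 to 1.08) and G6pc2, the islet glucose-6-phosphatase, at 0.942 times (0.828 to 1.07). Aldh1a3, a marker of dedifferentiated beta cells, was well above background on no array. In the urocortin and CRH list the receptor Crhr1 alone was tested, at 0.995 times (0.900 to 1.1). Crhr2, the receptor that Ucn3 prefers, was detected on no array, nor were Ucn, Ucn2, Crh and Crhbp. Of the 22 genes around the estrogen-related receptors, 20 were tested, 7 higher and 13 lower, around a median of -0.02. Esrra stood at 0.958 times vehicle (0.883 to 1.04), Esrrb at 0.926 times (0.744 to 1.15) and their coactivator Ppargc1a at 1.06 times (0.937 to 1.19).

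**Figure D5:**
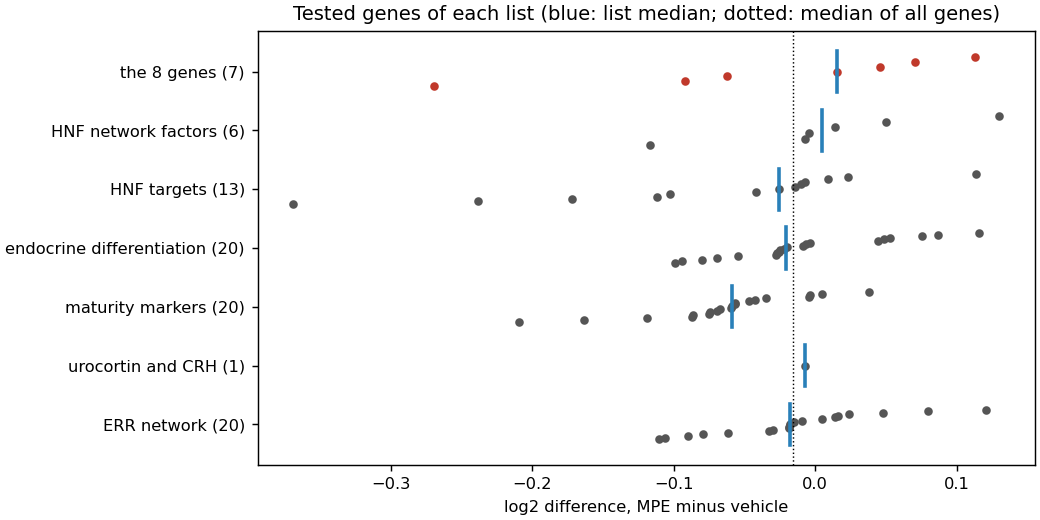
Log2 difference of MPE minus vehicle (x axis) for the tested genes of each list, 1 point per gene and their number in brackets; blue bars are list medians and the dotted line is the median of all genes. Medians of the lists plotted run from -0.06 for the maturity markers to 0.02 for the 8 genes, where that of all genes is -0.02.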

How the data were processed

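Cy3-labelled material made from total RNA was hybridised to 1-colour Agilent arrays, per the labels' protocols. The deposited spot intensities were made with Agilent Feature Extraction, version 11.5.1.1 per the file headers, where the processed intensity was background-subtracted and detrended within the array; the submitters' processing notes give version 10.5.1.1. The authors' value table holds log2 values with equal quantiles on all arrays, and it follows the processed signals in direction and without centring per gene (r of at least 0.9988, median 4.44 per column); what made it was not given in the sources used here.

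Control spots and 611 outlier-flagged spots were left out, and no other spot was saturated. Log2 intensities were averaged over a probe's spots and the 75th percentile of the array was subtracted. A probe was kept if it was well above background on 3 or more arrays (28938 probes), and a gene was its probe with the highest mean (22098 genes). Symbols came from RefSeq (GRCm38.p6, names only; 32994 of 56605 probes matched), since the files carry accessions. The treatment effect was fitted with limma 3.58.1 (lmFit and eBayes, R 4.3.3), at an adjusted p of 0.05. The fit was checked on simulated data that held no pattern by slide row or column. The number of arrays limits the precision. Genes named from the lists were 25 chosen for their role, whatever their values; some genes and motifs are not reported here. The members and lists were chosen with earlier results of these data known. Alternatives were median and quantile scaling, a percentile taken over only the probes detected everywhere, normexp (on median spot intensity, offset 50), no filter or all 7 arrays, the authors' table, the mean over a gene's probes, the replicate number or slide column as a block, and each array left out.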

Additional observations from a re-analysis of the deposited data

Results flagged for a closer look

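The dimmer Hnf4a probe stood apart on MPE replicate 3, at -1.60, while the remaining 3 MPE arrays gave -6.43 to -5.80. The same value is a signal in a probe that the comparison of genes does not use, above the -6.97 to -5.37 of the vehicle arrays, and the brighter Hnf4a probe did not share it. MPE replicate 4 stood apart for 2 genes of the lists. Foxa2 was at 5.31 there while the remaining MPE arrays gave 5.42 to 5.44, and Neurod1 was at 3.94 where they gave 4.08 to 4.11. Both values lay within or next to the vehicle range, which was 5.32 to 5.38 for Foxa2 and 3.87 to 4.11 for Neurod1. Of 29 sets of 4 MPE arrays checked, 3 held an outlying array, where chance flags about 1 in 20.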

How the results depend on the processing

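Over the alternatives run, 0 of the 8 genes passed limma's adjusted threshold, with a smallest adjusted p of 0.336, and 107 of 118 values for single genes kept their direction. The direction turned for genes near 0, on the log2 scale. Mnx1 went from 0.016 to -0.054 with median scaling, -0.023 with quantile normalization, -0.029 in the authors' value table and -0.032 with the replicate number as a block, and ran from -0.040 to 0.046 with an array left out. Insm1 went to -0.024 with median scaling, and to between -0.013 and 0.11 with an array left out. Ucn3 went to 0.023 when slide column was the block, the same as without MPE replicate 3, the only array of its column. With an array left out Ucn3 ran from -0.14 to 0.023. Median scaling moved the median of all genes from -0.02 to -0.09. Causes beyond this and the arrays that the blocks set aside were not tested. Without vehicle replicate 3, Hnf4g moved from -0.27 to -0.44.

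Over all genes limma called 1 gene, and 0 with normexp, the filter on all 7 arrays, the replicate block or the slide column as a block (1347, 681, 1903 and 1200 genes at an unadjusted p under 0.05). With an array left out it called 0 to 4. For probes, 3 were called, 0 in each of those 4 settings (1750, 921, 2379 and 1569 at an unadjusted p under 0.05), and 0 to 4 with an array left out. Without a filter, which lets in probes at background on every array, 9996 genes, 11949 probes and 14 genes of the lists were called. Same-numbered arrays of both groups deviated from their group means with correlations of 0.37, 0.08 and 0.56. Vehicle replicate 1 correlated most with MPE replicate 2 (0.41) and vehicle replicate 2 with MPE replicate 1 (0.18). Vehicle replicate 3 did so with its own number. Correlations of vehicle replicates 1 and 2 with MPE replicates 3 and 4 were negative (-0.45 to -0.0024). So were those of vehicle replicate 3 with MPE replicates 1 and 2 (-0.46 and -0.42). The single numbers were therefore not taken to pair the samples, and the replicate block changed no call among the 8 genes. A block of columns 1 and 2 against columns 3 and 4 was not fitted.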
